A study of Mus musculus with 44 samples.

Results

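NF-kB regions gained with LPS in both genotypes are positions where macrophages with and without the DNA methyltransferase Dnmt3a each had an NF-kB peak after stimulation and neither had one before it. The peaks of all 8 deposited ChIP-seq lists were joined wherever they overlapped by at least 1 bp, which gave 5605 regions. Of these, 186 (3.32%) held a peak from the LPS-treated wild-type (WT) list and one from the LPS-treated Dnmt3a knockout (KO) list, and none from either untreated NF-kB list. They made up 14.1% of the 1319 regions found in both LPS lists, and the other 1133 also held an untreated peak. The regions were thus chosen by the presence or absence of peaks in the 4 NF-kB lists. Their ranks, q-values and widths in those lists are therefore given as a description, with no test.

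The cells were bone marrow-derived macrophages of C57BL/6 mice, grown with M-CSF at 30 ng/ml and 10% serum and collected on day 8 to 10. WT and Dnmt3a KO cells were left untreated or given bacterial lipopolysaccharide (LPS) at 10 ng/ml for 6 hours. Each of the 4 NF-kB groups has 3 samples and 1 merged peak list, and the 4 IRF3 groups have 2 or 3 samples and 1 merged list each. The WT LPS NF-kB list holds 2494 peaks and the KO LPS list 2376, and the untreated lists hold 1462 (WT) and 3065 (KO). Not given in the sources used here were the way Dnmt3a was deleted, the NF-kB subunit precipitated and whether replicates came from separate animals. Merging leaves no spread between replicates, so no difference between lists was tested, and read depth is unknown. A peak missing from a list may lie below that list's limit, and more bound cells cannot be told apart from stronger binding per cell.

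NF-kB is a family of dimeric transcription factors held in the cytoplasm by IkB proteins. LPS, sensed by Toll-like receptor 4, triggers the destruction of IkB, and the freed dimers enter the nucleus and bind short kappaB sites in promoters and enhancers. Many early targets are inhibitors of the same pathway, such as A20 and the IkB proteins, and others encode cytokines, receptors and protective enzymes. IRF3 is another transcription factor activated through Toll-like receptor 4, best known for inducing type I interferon.

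Of the 186 regions, 8 (4.30%) touched a RefSeq promoter window, taken as 250 bases before a start site and 50 bases from it on. The share was 0.749% of all joined regions and 1.65% of those in the KO LPS list and no other NF-kB list. A further 6 regions, the Malt1 region among them, lie on a chromosome whose promoters were not analysed here. They are not counted among the 8, but regions of that chromosome are in the totals of these shares. The windows are those of Tnfaip3, Nlrp3, Irak3, Znrf1, Lrmda and 5 predicted genes: Gm32287 (2 windows) and Gm14321 under a peak in the direction of Cebpb, Gm38500 at Irak3, Gm16174 inside Bcl3, and Gm30613. These came to 11 windows, and the window of Gm30613 was touched by the joined region but by neither LPS NF-kB peak. The 250 bases before the start site are printed for 4 of them, as examples with matches to the motifs searched under or beside the shared peaks. The windows of Lrmda and Gm14321 also hold such matches and are not printed. Sequences are from RefSeq, assembly GRCm38.p6; mm10, named in the submitters' processing notes, is the same build. Each runs 5′ to 3′ toward the start site, and capitals mark matches to the kappaB, AP-1 or PU.1 motif on either strand.
Tnfaip3 (chr10:19015411-19015660, minus strand): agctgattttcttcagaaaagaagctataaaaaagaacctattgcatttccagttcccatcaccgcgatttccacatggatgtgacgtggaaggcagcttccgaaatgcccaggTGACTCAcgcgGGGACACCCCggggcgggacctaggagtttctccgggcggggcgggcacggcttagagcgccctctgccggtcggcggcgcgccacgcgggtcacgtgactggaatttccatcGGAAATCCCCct
Nlrp3 (chr11:59541319-59541568, plus strand): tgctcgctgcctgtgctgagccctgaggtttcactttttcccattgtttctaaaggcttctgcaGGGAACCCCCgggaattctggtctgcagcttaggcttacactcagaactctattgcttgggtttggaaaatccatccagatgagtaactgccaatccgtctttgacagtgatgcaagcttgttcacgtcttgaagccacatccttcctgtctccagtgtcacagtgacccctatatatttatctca
Gm32287 (chr2:167777415-167777664, minus strand): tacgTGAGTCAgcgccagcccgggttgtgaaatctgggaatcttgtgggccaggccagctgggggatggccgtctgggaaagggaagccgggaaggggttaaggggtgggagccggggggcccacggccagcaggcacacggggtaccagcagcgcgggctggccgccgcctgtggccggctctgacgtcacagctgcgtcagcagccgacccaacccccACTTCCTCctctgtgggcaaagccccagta
Gm16174 (chr7:19816335-19816584, plus strand): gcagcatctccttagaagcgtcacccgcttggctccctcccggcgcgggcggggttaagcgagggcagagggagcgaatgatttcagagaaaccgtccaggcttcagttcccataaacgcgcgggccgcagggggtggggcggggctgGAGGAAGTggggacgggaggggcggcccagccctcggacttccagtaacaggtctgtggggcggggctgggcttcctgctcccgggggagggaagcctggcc

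The Tnfaip3 promoter held 2 kappaB matches, GGGACACCCC at -125 to -116 bases from the start site and GGAAATCCCC at -12 to -3. An AP-1 match, TGACTCA, stood next to the first of them at -136 to -130. All of these matches lay inside the WT peak and inside the KO peak. The Nlrp3 promoter held 1 kappaB match, GGGAACCCCC, at -186 to -177. It lay outside the WT peak and inside the weaker of 2 adjoining KO peaks, which was 125 bp wide and ranked 1650. The Lrmda window held GGGGACCCCC at -209 to -200, inside both peaks. Gm32287 held an AP-1 match (TGAGTCA, -246 to -240) and a PU.1 match (ACTTCCTC, -30 to -23), and Gm16174 held the PU.1 match GAGGAAGT at -102 to -95, inside both peaks.

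The kappaB motif searched on both strands was the usual consensus of 10 bases. Of the 11 windows, 3 held it (27.3%, exact 95% interval 6.02 to 61.0%), against 4.50% of 32817 RefSeq promoter windows of the same length. The motif was in 3 of 10 windows (30.0%) at regions of the KO LPS list and no other NF-kB list, and in 7 of 48 (14.6%) at all joined regions. A looser form of the same length, which includes every consensus match, was found in 4 of 11 windows and 11.2% of all. The PU.1 core GAGGAAGT was in 3 of the 11 and in 3.20% of all windows, and the AP-1 core TGANTCA was in 3 of 11 and in 7.81%. The windows with the AP-1 core include that of Gm30613, which neither LPS NF-kB peak touched. The PU.1 matches of Gm32287 and Gm14321 are the same bases read on opposite strands. No window held the C/EBP motif TTGCNNCAA or the paired IRF motif, which were in 2.08 and 3.43% of all windows. The 11 windows come from 8 regions and some overlap, the intervals (Clopper-Pearson here and throughout) cover counting error only, and a match describes letters, not a bound site.

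**Figure D1:**
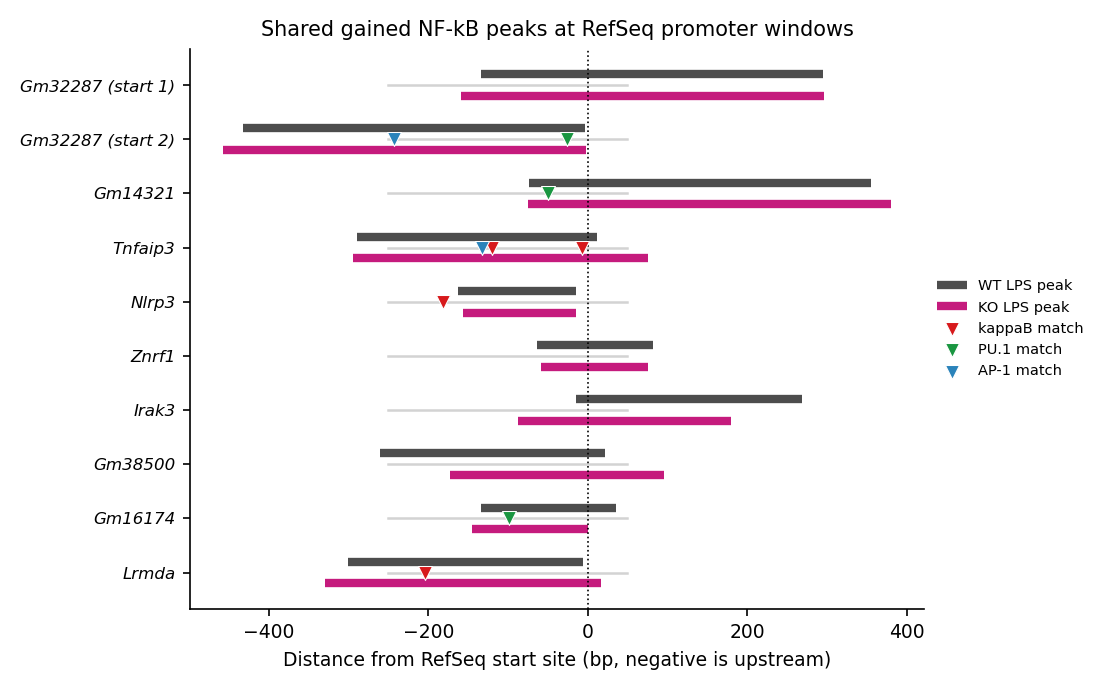
Best-ranked WT LPS (grey bar) and KO LPS (pink bar) NF-kB peaks relative to the RefSeq start site, in bp, at the 10 promoter windows that these peaks touched. The thin line spans the window and triangles mark motif matches; Tnfaip3 has 2 kappaB matches within both peaks, and the Nlrp3 match lies outside both bars.

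Peak width divided the 186 regions. In 62 of them (33.3%, 26.6 to 40.6%) the best-ranked peak was under 500 bp in both LPS lists, and these are called narrow here. In 93 regions it was 500 bp or more in both lists (wide), and in the other 31 it was narrow in 1 list (mixed). Of all peaks, 24.7% in the WT LPS list and 29.4% in the KO LPS list were under 500 bp. Narrow regions had median peak widths of 180 bp in WT and 234 bp in KO, in the range of the chromatin fragments, which were sheared to 100 to 300 bp, and wide regions had 1086 and 996 bp. WT and KO peak centres lay a median of 29.0 bp apart in narrow regions (0.500 to 230 bp) and 121 bp apart in wide ones (up to 796 bp). Centres of overlapping narrow peaks cannot lie far apart, so this difference follows from the width classes and shows no closer agreement between genotypes.

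**Figure D2:**
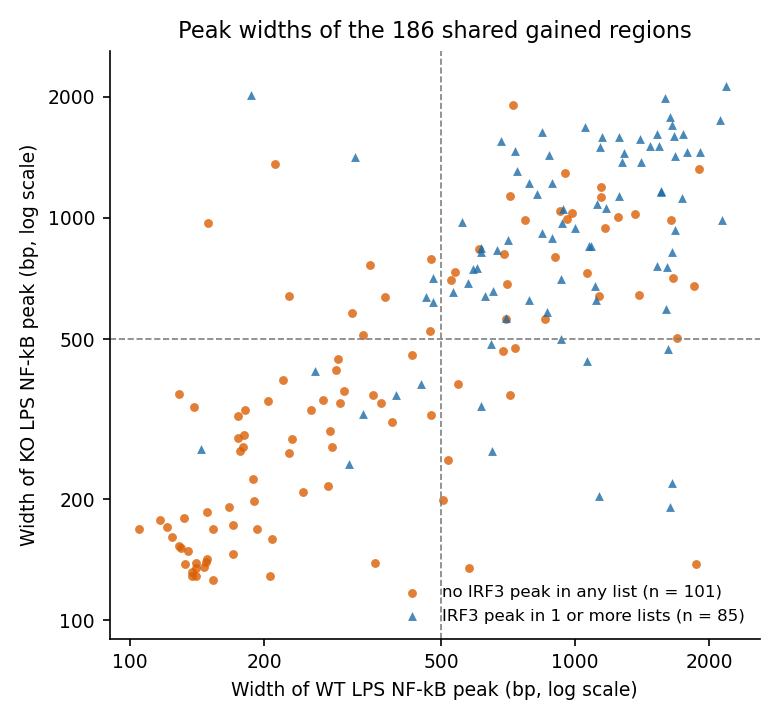
Width of the best-ranked WT LPS peak against that of the KO LPS peak, in bp on log axes, for the 186 regions, with dashed lines at 500 bp. Circles are regions without an IRF3 peak in any list and triangles the 85 with one, and 6 of the 62 narrow regions are triangles.

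Listed genes, meaning genes of 13 lists set up by role, lay mainly near narrow regions. Most lists hold genes of NF-kB signalling and the immune response. Others hold adaptor and cytoskeleton genes, macrophage identity genes and markers of other cell types. A listed gene lay within 50 kb of 17 of the 62 narrow regions (27.4%, 16.9 to 40.2%), 4 of the 31 mixed (12.9%) and 1 of the 93 wide (1.08%, 0.0272 to 5.85%). Over all 5605 joined regions the share was 2.09% (117 regions). Narrow regions were also nearer to genes of any kind, with a protein-coding gene within 50 kb of 79.0%, against 50.5% of wide ones. The 13 gene lists hold 341 matched genes and were written with earlier results of these data known, so the counts describe and do not test. Of the 341 genes, 20 (5.87%) lay within 50 kb of a region, against 1.12% of 21887 protein-coding genes; for narrow regions the share of protein-coding genes was 0.530%. A gene named here lies near a peak, and its expression was not analysed here. Ranks below count peaks by the authors' p-value within 1 list, so a WT rank and a KO rank stand side by side and do not measure a change.

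Among NF-kB pathway genes, 4 of 38 lay within 50 kb of a region: Tnfaip3, Tnip1, Bcl3 and Malt1. Tnfaip3 encodes A20, a ubiquitin-editing inhibitor of NF-kB signalling, and Tnip1 encodes a partner of A20. The Tnfaip3 region (chr10:19015334-19015705) covered the start site whose sequence is printed above. Its WT peak was 302 bp wide at rank 389 (q-value 0.0695) and its KO peak 372 bp at rank 53 (q-value 0.00297). The Tnip1 region (chr11:54936162-54936716) lay inside the gene, 26224 bp from its start site. In WT it was 1 peak of 519 bp (rank 815, q-value 0.242), and in KO the same stretch was listed as adjoining peaks of 250 bp (rank 163, q-value 0.0299) and 270 bp (rank 590). A20 and its partner thus each had a shared gained region, 1 at a promoter and 1 within the gene.

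Bcl3 encodes a nuclear IkB protein that works with the NF-kB p50 and p52 subunits. Its region (chr7:19816440-19816620) lay inside the gene, 6135 bp from the Bcl3 start site and at the start of Gm16174. The WT peak ranked 1998 (q-value 0.869) and the KO peak 767 (q-value 0.305). Malt1, the gene of a paracaspase that relays antigen receptor signals to NF-kB, had a region 284 bp from the gene at chr18:65430388-65430655. That region ranked 365 in WT (245 bp, q-value 0.0623) and 133 in KO (208 bp, q-value 0.0195). The other 34 pathway genes, the NF-kB subunit genes among them, had no shared gained region within 50 kb.

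Of 49 receptor and signalling genes, 7 lay within 50 kb, and each of their regions was narrow in both lists. Irak3 encodes IRAK-M, an inhibitor of Toll-like receptor signalling. Its region (chr10:120201329-120201685) covered a start site, with peaks of 284 bp in WT (rank 1728, q-value 0.683) and 269 bp in KO (rank 948, q-value 0.407). Socs3, which encodes an inhibitor of cytokine receptor signalling, lay 19297 bp from a region at chr11:117946337-117946782. The Socs3 region had a q-value under 0.05 in both lists, at rank 271 in WT (294 bp, q-value 0.0314) and 172 in KO (446 bp, q-value 0.0324). Dusp16, which encodes a MAP kinase phosphatase, lay 14359 bp from a region inside Borcs5 that ranked 1927 in WT and 1125 in KO. The Dusp16 start site lay 91519 bp from that region. Irak3, Socs3 and Dusp16 each encode a negative regulator; the other 4 of the 7 genes do not share that role.

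Nlrp3 encodes the sensor of an inflammasome that drives maturation of IL-1 beta. Its WT peak (149 bp, rank 1085, q-value 0.352) and best KO peak (142 bp, rank 653, q-value 0.247) both ended 15 bp before the start site, and their centres lay 3.50 bp apart. Fpr2, a formyl peptide receptor gene, lay 6830 bp from a region at chr17:17900782-17901070, and its neighbour Fpr1 lay 16843 bp from it. This region ranked 831 in WT (180 bp, q-value 0.244) and 101 in KO (289 bp, q-value 0.00932). Tnfrsf1b, the gene of TNF receptor 2, lay 14550 bp from a region whose nearest gene, at 5413 bp, was Tnfrsf8, the CD30 gene. It ranked 1308 in WT and 522 in KO, with q-values of 0.452 and 0.183.

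Of 30 effector genes, Fth1, Sod2 and Ptges lay within 50 kb. Fth1 encodes the heavy chain of ferritin, which stores iron, and had 2 regions before its start site on chromosome 19, separated by 2515 bp. The farther one (chr19:9974801-9975392, 5208 bp away) ranked 119 in WT (473 bp, q-value 0.00818) and 28 in KO (523 bp, q-value 6.93e-04), the best KO rank of the 186 regions. The nearer one (chr19:9977908-9978878, 1722 bp away) ranked 1151 in WT, where its peak was 150 bp wide, and 497 in KO, where it was 971 bp wide. Both Fth1 regions were of mixed width.

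Sod2 encodes the mitochondrial superoxide dismutase, and its region lay inside the gene at chr17:13010071-13010354, 2232 bp from the start site. It ranked 284 in WT (175 bp, q-value 0.0348) and 170 in KO (284 bp, q-value 0.0318). Ptges encodes a prostaglandin E synthase and had 2 narrow regions inside its annotated span, 9910 and 21977 bp from the start site. The nearer Ptges region (chr2:30913207-30913627) ranked 2241 in WT and 766 in KO, and its peaks shared 20 bp, the smallest overlap among the 186 regions. The farther one (chr2:30925274-30925444) ranked 1028 in WT and 1111 in KO. Of 35 cytokine and chemokine genes, only Cxcl16, which encodes a membrane-bound chemokine, lay within 50 kb, 7881 bp from a region. That region ranked 1335 in WT and 940 in KO, and its nearest gene, at 1661 bp, was Zmynd15.

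Of 45 transcription factor genes, Batf and Ets2 lay within 50 kb. Batf encodes an AP-1 family factor, and its region (chr12:85705630-85705933) lay inside the gene, 18910 bp from the start site. It ranked 827 in WT (228 bp, q-value 0.244) and 459 in KO (260 bp, q-value 0.154). Ets2, an ETS family gene, lay 7902 bp from a region at chr16:95728951-95729128, with its start site 26544 bp away. That region ranked 2319 in WT (117 bp, q-value 0.904) and 278 in KO (178 bp, q-value 0.0709). The Ets2 region thus stood in the last 10% of the WT list and at 11.7% of the KO list.

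Cebpb, which encodes a C/EBP factor of macrophages, was the nearest protein-coding gene to 2 narrow regions beyond the 50 kb limit, 86984 and 63584 bp away. The farther one (chr2:167777416-167777871) covers starts of Gm32287 and Gm14321, and it ranked 134 in WT (430 bp, q-value 0.00916) and 38 in KO (456 bp, q-value 0.00146). The other (chr2:167754016-167754219) ranked 358 in WT (190 bp, q-value 0.0591) and 114 in KO (198 bp, q-value 0.0131). Both therefore ranked in the first 15% of each list.

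Of 28 adaptor and cytoskeleton genes, Fgd2, Fgd4 and Fyb lay within 50 kb. Fgd2, a guanine nucleotide exchange factor gene for Cdc42, had 2 regions separated by 640 bp. They lay 15596 and 14420 bp from the gene, and 34217 and 33041 bp from its start site. The first (chr17:29395131-29395716) held the best WT rank of the 186 regions, at 65 (315 bp, q-value 0.00185), and ranked 99 in KO (580 bp, q-value 0.00901). The second (chr17:29393955-29394490) ranked 2107 in WT (q-value 0.904) and 823 in KO (q-value 0.342). Fyb, the gene of an adaptor in leukocyte adhesion signalling, had a region inside its span at chr15:6569170-6569508 that ranked 642 in WT (139 bp, q-value 0.155) and 48 in KO (339 bp, q-value 0.00218). The Fgd4 region, 21978 bp from that gene, was the only wide one of the 186 near a listed gene. It stood near the end of the lists, at rank 2012 in WT and 2339 in KO. A region in both LPS lists and an untreated NF-kB list lay within 10 kb of Fgd4.

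**Figure D3:**
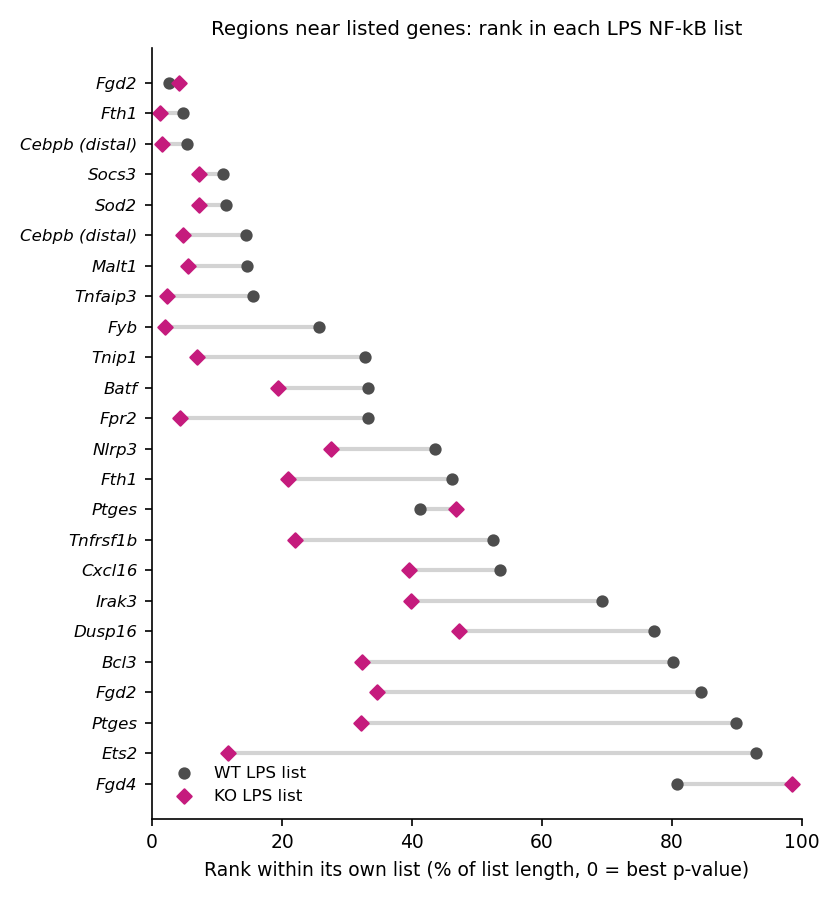
Rank within its own list, in percent of the list's length with 0 as the best p-value, for the regions within 50 kb of a listed gene and the 2 distal Cebpb regions. Circles are the WT LPS list and diamonds the KO LPS list. Regions are ordered by the worse of both values, from Fgd2 at 2.61 and 4.17% to Fgd4 at 80.7 and 98.4%.

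Other lists had no region within 50 kb: 16 survival genes, 32 interferon-stimulated genes, 30 macrophage identity genes, and marker lists of T cells, B cells, neutrophils and fibroblasts (10, 9, 10 and 10 genes). The labelled cell type could therefore not be checked from the shared gained regions. Tnfaip3, Fth1, Ptges, Fpr1, Fpr2, Socs3, Tnfrsf1b and Batf had, within 50 kb, a region from the KO LPS list and no other NF-kB list in addition to their shared gained region, and Tnfrsf1b also had one from the WT LPS list alone.

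Of the 186 regions, 9 (4.84%) had a q-value under 0.05 in WT and 14 (7.53%) in KO, against 13.2% of all WT LPS peaks and 9.55% of all KO LPS peaks. In both lists 7 did (3.76%, 1.53 to 7.60%), against 161 of the 1133 regions shared with an untreated list (14.2%). The 7 were the stronger regions of Fgd2 and Fth1, the farther Cebpb region, the Socs3 and Sod2 regions, a region 9439 bp from Fam107a and a region at chr2:46371000-46371332 with no gene within 100 kb. The last ranked 281 in WT (181 bp, q-value 0.0340) and 87 in KO (333 bp, q-value 0.00689). The lists hold peaks with q-values up to 0.904 (WT) and 0.912 (KO), and 16 of the 186 regions had a q-value under 0.05 in at least 1 of them.

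Narrow and wide regions also differed in their ranks. Narrow regions had a median rank at 57.5% of the WT list and 29.8% of the KO list, and wide regions at 51.6 and 52.1%. Over all peaks under 500 bp the medians were 76.2 and 70.3%, later than for the narrow shared gained regions, and over all wider peaks they were 40.8 and 40.6%, earlier than for the wide ones. The rule asked for a peak in both LPS lists, which itself bears on rank, so nothing is read from these medians. In 51 of 62 narrow regions the relative rank was better in the KO list, in 49 of 93 wide ones, and in 510 of 1133 regions shared with an untreated list. Across the 186 regions Spearman's rho between WT and KO ranks was 0.283, with 0.406 among narrow and 0.175 among wide regions, and 0.616 among the 1133. These values describe regions, which share their lists and are not replicates. Ordered by the worse of both relative ranks and divided into sets of 62, the regions near a listed gene numbered 14, 3 and 5.

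IRF3 peaks were scarce on narrow regions and frequent on wide ones. An IRF3 peak from any of the 4 IRF3 lists was joined to 85 of the 186 regions (45.7%, 38.4 to 53.1%). Over all joined regions the count was 3082 of 5605 (55.0%). That total includes regions of IRF3 lists alone, which hold an IRF3 peak by definition. An IRF3 peak was on 6 of 62 narrow regions (9.68%, 3.63 to 19.9%), 14 of 31 mixed (45.2%) and 65 of 93 wide ones (69.9%, 59.5 to 79.0%). By the larger of both peak widths, the count was 0 of 25 regions under 200 bp, where 0 allows up to 13.7% by the exact interval, and 32 of 39 at 1500 bp or more (82.1%, 66.5 to 92.5%). Peak width moved together with the IRF3 share, and its part in that share was not tested. The series holds a single input sample for each genotype and treatment. The IRF3 and NF-kB lists may thus share inputs and cells and were not taken as independent. No narrow region near a listed gene held an IRF3 peak. The 6 narrow ones that did lay nearest to BC048403, Gm38510, Zfand3, Atp6v0a2, Gm17019 and Speer4d, and they were named after the values were seen.

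The IRF3 peaks were not tied to 1 treatment. They came from the untreated WT list in 22 regions (11.8%), the WT LPS list in 34 (18.3%), the untreated KO list in 35 (18.8%) and the KO LPS list in 48 (25.8%). Those lists hold 1169, 1424, 1707 and 1792 peaks. Over all joined regions the shares, in the same order, were 20.3, 24.4, 28.3 and 30.7%, each higher than among the 186. All joined regions include those in IRF3 lists and no NF-kB list. Of the 186 regions, 70 (37.6%) held a peak from an IRF3 LPS list, 12 (6.45%) from both IRF3 LPS lists, and 15 (8.06%) from untreated IRF3 lists alone. Among all joined regions these shares were 41.0, 14.0 and 14.0%. A region gained in the NF-kB lists could therefore already hold an IRF3 peak in untreated cells, as 48 of the 186 did (25.8%). That share was lower than the 37.0% of all joined regions.

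**Figure D4:**
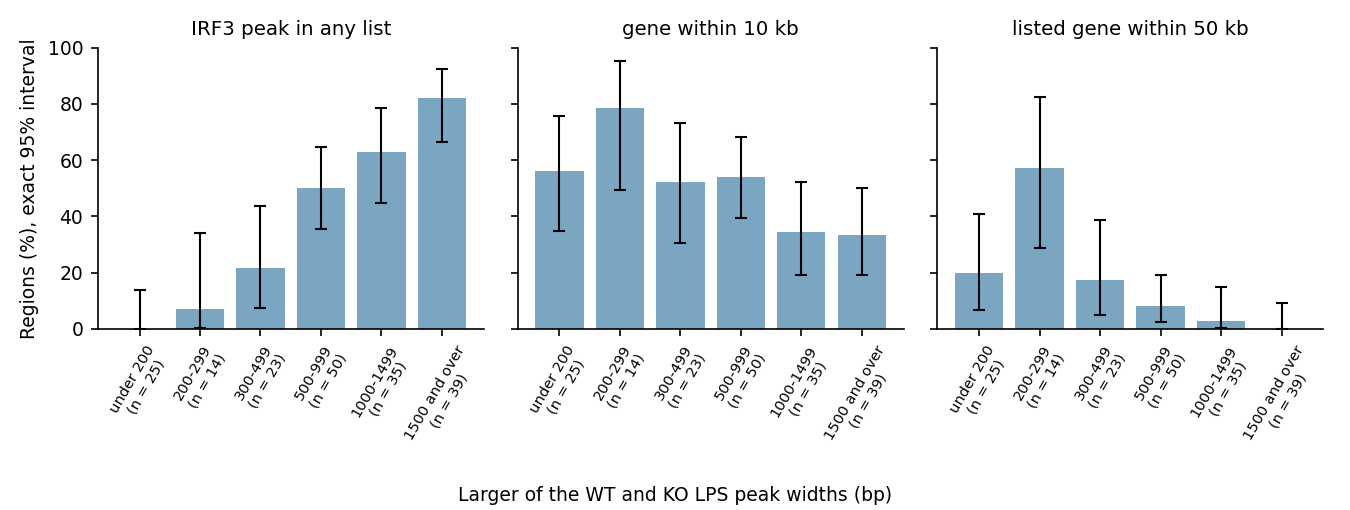
Share of the 186 regions with an IRF3 peak in any list, within 10 kb of a protein-coding gene, or within 50 kb of a listed gene, by the larger of the WT and KO LPS peak widths in bp. Bars are percentages with exact 95% intervals; the IRF3 share runs from 0% under 200 bp to 82.1% at 1500 bp or more, and the listed-gene share is highest, at 57.1%, for the 14 regions of 200 to 299 bp.

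Wide regions lay farther from genes than narrow and mixed ones. The median distance to a protein-coding gene was 7016 bp for narrow, 5208 bp for mixed and 47868 bp for wide regions, against 25005 bp for all joined regions. Within 10 kb of a gene lay 37 of 62 narrow regions (59.7%, 46.4 to 71.9%), 58.1% of mixed and 34 of 93 wide ones (36.6%, 26.8 to 47.2%). The share of all joined regions was 39.8%, close to that of the wide ones. No gene lay within 100 kb of 38 wide, 4 mixed and 8 narrow regions. All 8 regions at promoter windows on the other chromosomes were narrow; of the 6 on chromosome 18, not analysed for promoters, 2 were narrow.

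The wide and mixed regions included 13 whose nearest gene within 100 kb encodes an olfactory (Olfr, 8 regions) or vomeronasal (Vmn, 5 regions) receptor, gene families with many close copies. They were 6.99% of the 186 (3.77 to 11.7%), against 3.19% of all joined regions and 3.09% of those shared with an untreated list. No narrow region was among them (0 of 62, which allows up to 5.78%), and 9 of the 13 held an IRF3 peak. The Olfr1314 region (chr2:112082075-112083791), 7970 bp from that gene, had the best ranks of these, at 610 in WT (1255 bp) and 554 in KO (1587 bp). These positions are uncertain, since how reads matching several copies were treated is not given in the sources used.

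The widest joined region, 2281 bp at chr18:23249297-23251577 and 58429 bp from Dtna, held a WT peak of 187 bp and a KO peak of 2017 bp. The next widest, 2268 bp at chr2:15303594-15305861 and 2263 bp at chr17:13550787-13553049, had no gene within 100 kb, were wide in both lists and carried IRF3 peaks. The 5 regions with the worst rank in either list were all wide: the Fgd4 region, one inside Cntnap2 (KO rank 2362), one 5777 bp from Ear14 (WT rank 2451) and 2 without a gene within 100 kb.

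No listed gene lay within 50 kb of 45 of the 62 narrow regions. The 5 named next were picked from these 45 after their values were seen, as examples, and they do not describe the group. Aoah encodes an enzyme that inactivates LPS, and a region 6837 bp from it ranked 1330 in WT (351 bp) and 291 in KO (363 bp). Mefv encodes pyrin, an inflammasome sensor, and lay 5038 bp from a region at rank 2435 in WT and 331 in KO. Lpcat2, the gene of an enzyme that makes platelet-activating factor, held a region at rank 1917 in WT and 329 in KO. Zc3h12c, of the Regnase family of RNA-degrading proteins, lay 5952 bp from a region at rank 1633 in WT and 850 in KO. Ly9, a SLAM family receptor gene, lay 9580 bp from a region at rank 2383 in WT and 441 in KO. Each of these 5 regions had a q-value above 0.05 in both lists and no IRF3 peak.

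Some of the remaining regions named by rank stood early in the lists without lying near a listed gene. The Sned1 region, inside the gene at chr1:93294691-93294828, ranked 115 in WT (138 bp, q-value 0.00773) and 336 in KO (129 bp, q-value 0.0936). The Fam107a region (chr14:8286694-8286831) ranked 324 in WT (138 bp) and 110 in KO (132 bp), and the Gramd3 region, 83908 bp from that gene, ranked 651 and 457. The authors' signal values of these regions were low for their rank, at 7.50 and 6.15 for Sned1 and 3.88 and 5.27 for Fam107a (WT and KO), beside 25.7 and 22.6 for the first Fgd2 region. Of the 62 narrow regions, 13 had a signal value under 8 in both lists, a limit set after the values were seen, and none of the 13 was near a listed gene. The Lrmda region, over a start site of that gene at chr14:22019382-22019728, ranked 2208 in WT (296 bp) and 616 in KO (347 bp).

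For narrow and IRF3 peaks, the shared gained regions had shares between those of regions shared with untreated cells and of regions of 1 genotype. The latter are in 1 LPS list and no other NF-kB list. Regions with an untreated NF-kB peak and only 1 LPS list were not part of these comparisons. Narrow peaks in both lists were found in 62 of 186 (33.3%), against 26 of the 1133 regions shared with an untreated list (2.29%, 1.50 to 3.34%). In the regions of 1 LPS list the peak was narrow in 351 of 640 (54.8%, 50.9 to 58.7%) for WT and 357 of 547 (65.3%, 61.1 to 69.3%) for KO, a count over 1 list instead of both. An IRF3 peak was on 90.5% of those shared with an untreated list (88.6 to 92.1%), 45.7% of the shared gained, 21.7% of the WT (18.6 to 25.1%) and 18.8% of the KO regions (15.6 to 22.4%). Among narrow regions alone the IRF3 share was 9.68% in the shared gained, close to 8.55% in the WT (30 of 351) and 8.40% in the KO regions (30 of 357), and 57.7% (15 of 26, 36.9 to 76.6%) in those shared with an untreated list. A listed gene lay within 50 kb of 11.8% of shared gained regions (7.56 to 17.4%), 1.15% of those shared with an untreated list (0.612 to 1.95%), 1.09% of WT and 7.68% of KO regions (5.59 to 10.2%). Among narrow regions alone that share was 27.4% in the shared gained, 9.24% in the KO (6.45 to 12.7%) and 0.855% in the WT regions. It was 0 of 26 in narrow regions shared with an untreated list, which allows up to 13.2%. Intervals treat regions as independent, and the rule itself set which lists a region may appear in. The gene lists were written with earlier results of these data known, so their shares describe the groups and do not test a difference between them.

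**Figure D5:**
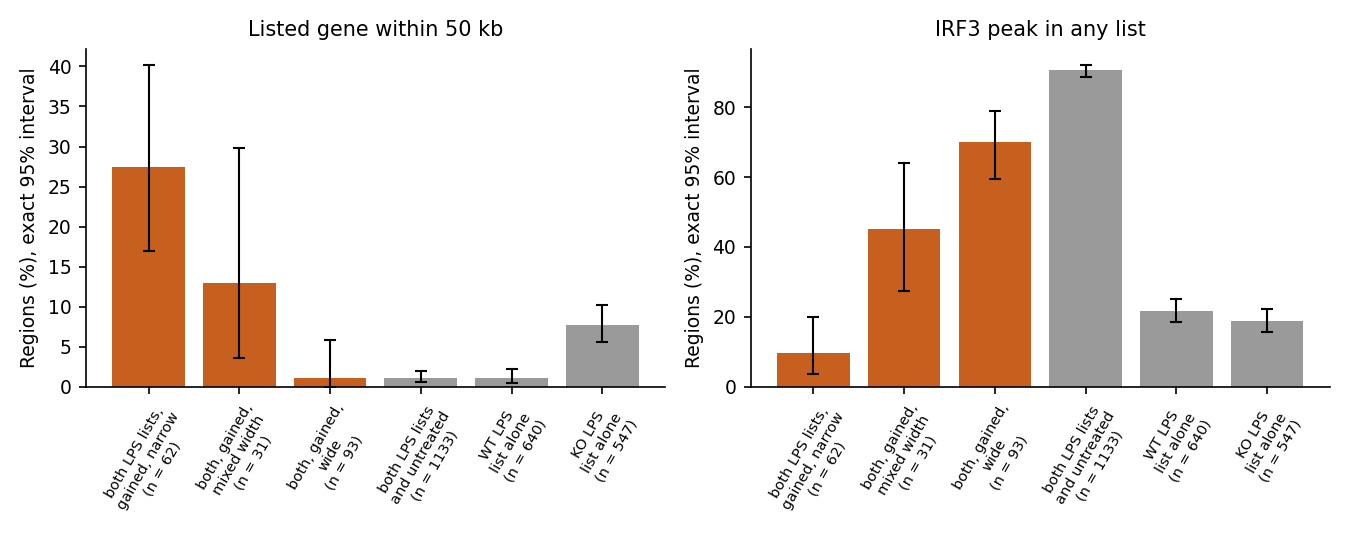
Shares of regions with exact 95% intervals for the shared gained regions by width class (orange) and for other regions (grey). The grey groups are regions in both LPS lists and an untreated list, and regions in the WT or KO LPS list and no other NF-kB list. Regions with an untreated NF-kB peak and only 1 LPS list are in no bar. An IRF3 peak was on 9.68% of the narrow class and 69.9% of the wide class. A listed gene lay within 50 kb of 27.4% and 1.08%, from gene lists written with earlier results of these data known.

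Membership depended on where the lists ended. Of the regions in the WT LPS list, 1480 of 2403 (61.6%) had no untreated WT peak, and of those in the KO LPS list 845 of 2209 (38.3%) had no untreated KO peak. Among the 1133 regions in both LPS lists that were left out, 359 had an untreated peak from the KO list alone and 59 from the WT list alone. Just inside the rule, a narrow region 17094 bp from Reg3g lay 355 bp from the nearest untreated NF-kB peak, the only one of the 186 with such a peak within 1 kb; the median distance was 274815 bp. Just outside it, a region near Gm10654 was joined to an untreated peak without direct overlap. At Sfi1 the largest direct overlap was 113 bp, with LPS peaks of 347 bp in WT and 159 bp in KO.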

How the data were processed

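NF-kB and IRF3 ChIP-seq was analysed here from 8 peak lists on mm10, 1 per factor, genotype and treatment, covering 22 of the 44 samples of the series. Per the labels, all replicates of a group share 1 list, so replicates were merged; not given in the sources used here are the way of merging, the aligner and the read depth. The submitters' processing notes name MACS2 2.1.1, HOMER 4.9, Picard 2.8.0 and deepTools 3.5.0, without roles. Each peak carries a signal score and a rank score whose scaling is not stated, and a p-value and a q-value, all as deposited by the authors.

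With Python 3.11.15, peaks of autosomes 1 to 19 and of X and Y were joined at 1 bp of overlap. Where a list had several peaks in a region, the one with the lowest p-value gave rank, width and q-value. A script test on simulated intervals recovered the regions placed in them. Distances were measured to RefSeq protein-coding genes (GRCm38.p6), and motifs were searched in 300-base promoter windows, since no genome sequence was used. Shares have exact 95% binomial intervals (scipy 1.17.1). Regions were named if within 50 kb of a listed gene, among the 15 best or 5 worst by the worse relative rank, narrow and within 1 kb of a gene end, or among the 3 widest; a further class, q-value under 0.05 in both lists with a kappaB match, was empty. The regions and the gene lists were chosen with earlier results of these data known. Joining at 50 bp, direct overlap, stricter q-values, equal list length and other width and distance limits were tried as alternatives. No p-value was computed here.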

Additional observations from a re-analysis of the deposited data

How the results depend on the processing

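The number of shared gained regions was 186; it was 185 when joining needed 50 bp or when untreated peaks within 1 kb were barred, and 204 when peaks had to overlap directly. It fell to 7 when both LPS peaks needed a q-value under 0.05, and to 103 when every NF-kB list was limited to its best 1462 peaks, of which 76 of the 186 were met. Under the q-value limit 71.4% were narrow (5 of 7), 0 held an IRF3 peak and 0 of 3 promoter windows held a kappaB match, with too few regions to compare. The narrow share was 21.0% with a limit of 300 bp and 60.2% with 1000 bp. The share near a gene was 32.3% within 1 kb and 64.5% within 50 kb. With q-value limits of 0.1 and 0.2 in both lists, 5.91 and 8.06% passed. The rank correlation of 0.283 was 0.380 by signal, 0.406 in narrow and 0.175 in wide regions, the last added after seeing the data. Leaving out regions nearest to a multigene family, also added later, gave 35.6% narrow, 40.9% with IRF3 and 47.0% near a gene. No paired analysis was possible because each group is 1 merged list, and for the same reason no replicate could be left out. Motif windows of 200 and 500 bp around peak centres and masking of repeats were not run, since no genome sequence was used.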

Other observations

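Pairs of shared gained regions lay close together at several loci. Within 50 kb of each other were the pairs at Fgd2 (640 bp apart), Fth1 (2515 bp), Ptges (11646 bp) and the distal Cebpb stretch (23196 bp). Fgd2 and Ptges code for a Cdc42 exchange factor and a prostaglandin synthase, and at both loci 1 region of the pair ranked in the last 20% of the WT list. Pairs near Gm38510 (10642 bp apart) and Ipo5 (33526 bp) each joined 1 narrow and 1 wide region. A narrow region 20612 bp from Ptpn1, a tyrosine phosphatase gene, lay on the same stretch of chromosome 2 as the Cebpb pair and ranked 2088 in WT and 1046 in KO. By chromosome, the share of joined regions that were gained in both genotypes was highest on chromosome 17 (11 of 162, 6.79%) and was 7 of 546 on the X chromosome (1.28%).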
